A study of Mus musculus with 31 samples.

Results

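Long-term haematopoietic stem cells (LT-HSCs) that carried mutant human JAK2 were compared with and without Dnmt3a after combined treatment with interferon and azacytidine. The comparison was chosen by the labels and takes 7 of the 31 RNA-seq libraries of the series, 3 named VFDM COMBO and 4 named VF COMBO. VFDM donor marrow had the genotype SclCre;FF1;Dnmt3Δ/Δ;GFP and VF donor marrow had SclCre;FF1;GFP. JAK2-V617F, the Cre driver and the GFP reporter were therefore carried in both groups, and loss of Dnmt3a was the labelled difference. Donor marrow was transplanted into wild-type mice together with a 10-fold excess of wild-type marrow. Dosing began 4 weeks later and lasted 8 weeks, with pegylated interferon alpha at 25 µg/kg each week and 5-azacytidine at 2 mg/kg each day, and the animals' age is not in the labels. Lineage-negative, Sca1-positive, Kit-positive, CD150-positive and CD48-negative bone marrow cells were sorted. The gate names no GFP, so competitor cells could have been sorted too, and their share was not measured. The other 6 groups (VFDM and VF under vehicle, interferon alone, IFN, and azacytidine alone, AZA, with 4 libraries each) enter only where the genotype difference under COMBO is set beside theirs.

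DNMT3A adds methyl groups to unmethylated CpG sites, and its loss is a frequent early lesion of human myeloid disease in which stem cells favour self-renewal over differentiation. JAK2-V617F signals without cytokine, mainly through STAT5, and drives red cell, platelet and granulocyte output. Interferon alpha induces antiviral genes through JAK1, TYK2 and STAT factors and brings stem cells into cycle, while azacytidine is built into nucleic acids and traps DNA methyltransferases.

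The VFDM COMBO libraries held 17782394 to 31222213 counts and the VF COMBO libraries 20586606 to 32667491, with 18450 to 21262 and 17087 to 23834 rows detected. Levels are CPM, counts relative to the library's TMM-scaled total, and 3 counts correspond to at most 0.173 CPM in any of the 7 libraries. Log2 fold changes are VFDM over VF, given ± SE, and adjusted p is edgeR's quasi-likelihood test over 22172 rows. A gene was called at an adjusted p under 0.05. The labels do not say that each library came from a separate animal, so a p-value here speaks only of library-to-library spread, part of which may be technical. A pair of libraries stood apart. Library 3 of VFDM COMBO had the highest summed level of the 26 erythroid markers (22780 CPM, against 3242 and 5469 CPM in libraries 2 and 4 and 614 to 1754 CPM in VF COMBO). Library 1 of VF COMBO had the T cell gene Cd3e at 23.9 CPM, while the other VF COMBO libraries had 0. Transcripts of the Y-linked Ddx3y stood at 0.568, 12 and 2.51 CPM in VFDM COMBO libraries 2, 3 and 4 and at 0 in all 4 VF COMBO libraries, and the part of these features in the results below was not tested.

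Dnmt3a was lower in all 3 libraries labelled as deleted. Dnmt3a (ENSMUSG00000020661, mm10 chromosome 12, 3806007 to 3914443) had 51.6, 23 and 57 CPM in VFDM COMBO, against 193, 139.8, 104.5 and 174.5 CPM in VF COMBO. The groups did not overlap, and the log2 fold change was -1.80 ± 0.24 (adjusted p = 9.84e-06). With the 7 libraries fitted alone the difference was -1.74 and did not pass (adjusted p = 0.0811). These are counts over the whole gene. Exons that the deletion leaves in place and any sorted competitor cells could both add to the level in VFDM, and their parts were not tested. The same difference under vehicle was -1.0, under IFN -0.50 and under AZA -1.01. The difference under COMBO was larger than the mean of those 3 (adjusted p = 0.0338), and against vehicle alone the difference between them did not pass (adjusted p = 0.141). Single libraries weigh on that mean and on COMBO. VFDM IFN library 3 (162 CPM) lay within the VF IFN range (160 to 178 CPM), and without it the difference under IFN was -0.69. Without VFDM COMBO library 3 the difference under COMBO was -1.45. Each p is for either direction.

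The other methylation genes and the transgenes gave a check on the cells. Dnmt3b, the other de novo methyltransferase, was lower in VFDM COMBO (64.2, 38.0 and 38.9 CPM, against 143, 42.9, 117 and 98.7 CPM in VF COMBO), with groups that overlapped and a call that ended without any one of VFDM COMBO libraries 3 and 4 and VF COMBO library 1 (adjusted p up to 0.0859). Tet1, which oxidises methylcytosine, had 48.4, 58.2 and 55.1 CPM in VFDM COMBO and 148, 94.2, 83.5 and 94.3 CPM in VF COMBO, and the groups did not overlap (-0.96 ± 0.21, adjusted p = 0.00464). Dnmt1, the maintenance enzyme, ran from 590 to 734 CPM in VFDM COMBO and from 466 to 801 CPM in VF COMBO, with a log2 fold change of -0.02 ± 0.18 that did not pass, and Tet2 (-0.04 ± 0.18) and mouse Jak2 (0.05 ± 0.13) did not pass either. The row for exons 3 to 12 of the human JAK2 transgene had 59.5, 98 and 87.9 CPM in VFDM COMBO and 88 to 126 CPM in VF COMBO, which overlapped. The row for its exons 13 to 25 had 47.3, 76.8 and 69.9 CPM in VFDM COMBO and 43.9 to 159 CPM in VF COMBO. The row for the inverted exons 13 to 25 had 2.02, 9.78 and 5.24 CPM and 4.75 to 21.4 CPM, and these rows overlapped too. The GFP row was higher in VFDM COMBO, with 389.5, 1031 and 514 CPM against 159.6 to 294 CPM (1.52 ± 0.28, adjusted p = 0.00117). CreERT2 did not overlap between the groups (153 to 189 CPM in VFDM COMBO and 94.3 to 128 CPM in VF COMBO) but missed the threshold (adjusted p = 0.0593). CreERT2 also lay higher in VFDM under vehicle (198 to 244 CPM, against 86.8 to 173 CPM). Under AZA it had 186 to 242 CPM in VFDM and 66.9 to 107 CPM in VF, and under IFN 113 to 244 CPM and 79.2 to 104 CPM. GFP had 355 to 412 CPM in VFDM vehicle and 110 to 325 CPM in VF vehicle. Under AZA it had 301 to 441 CPM and 197 to 282.5 CPM, while under IFN the groups overlapped. Whether a larger share of sorted cells carried the transgenes in VFDM, under COMBO or the other treatments, was not tested.

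Of the sort genes, Slamf1 and Ly6a differed. Kit, the stem cell factor receptor, had 515 to 677 CPM in VFDM COMBO and 503 to 892 CPM in VF COMBO. Slamf1, which encodes CD150, was higher, with 87.5, 94.7 and 95.4 CPM in VFDM COMBO against 49.6 to 56.8 CPM in VF COMBO (0.83 ± 0.22, adjusted p = 0.0249). Ly6a, which encodes Sca1 and responds to interferon, was lower, with 15.5, 18 and 11.6 CPM in VFDM COMBO against 63.2, 24.3, 24.5 and 29.3 CPM in VF COMBO (-1.23 ± 0.29, adjusted p = 0.00938). Neither pair of groups overlapped. The Slamf1 call ended without any one of VFDM COMBO libraries 3 and 4 and VF COMBO library 1 (adjusted p up to 0.0625), and the Ly6a call without VFDM COMBO library 4 or VF COMBO library 1 (adjusted p up to 0.0878). Slamf1 also lay higher in VFDM with no overlap under vehicle (59.3 to 93.3 CPM, against 21.8 to 44.5 CPM). The same held under AZA (83.8 to 103 CPM, against 46.75 to 75.9 CPM). Under IFN it overlapped, and without VFDM IFN library 3 its log2 fold change there was 1.105 (adjusted p = 0.0058, edgeR). Cd48 (14.1 to 22.8 CPM in VFDM COMBO, 3.69 to 15.3 CPM in VF COMBO) overlapped and did not pass.

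Across all rows, 1132 of 22172 (5.11%) differed between VFDM COMBO and VF COMBO, 265 higher (1.2%) and 867 lower (3.91%). In 1824 rows (8.23%) the 3 VFDM COMBO libraries lay wholly above or wholly below the 4 VF COMBO libraries. The median log2 fold change of all rows was -0.06. All 31 libraries shared 1 estimate of the spread in this test, and the count differed between fits. With the 7 libraries fitted alone, over 17183 rows, no row passed (1313 had an unadjusted p under 0.05), DESeq2 on the same 7 libraries called 333, limma voom on them 109, and limma voom with quality weights on all libraries 162. Without VFDM COMBO library 3 the count was 614, without VFDM COMBO library 4 it was 728, without VF COMBO library 1 it was 632, and without both VFDM COMBO library 3 and VF COMBO library 1 it was 408, with 350 lower and 58 higher.

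Genes that mark or maintain LT-HSCs were lower in VFDM COMBO. Of 40 such genes, all tested, 18 were lower, 1 was higher (Slamf1) and 21 did not pass. Of all rows, 3.91% were lower and 1.2% higher. A negative log2 fold change was found in 34 of the 40. The list's median was -0.98, against -0.06 for all rows, and its summed level was 4090 to 4631 CPM in VFDM COMBO and 5269 to 6533 CPM in VF COMBO. In 17 of the 40 genes the groups did not overlap, against 8.23% of all rows. Of the 18 lower genes, 11 passed without any single one of the 7 libraries (Hlf, Mecom, Procr, Esam, Tek, Ctnnal1, Angpt1, Mycn, Erg, Msi2 and Gimap6), and 11 members of the list were lower without both VFDM COMBO library 3 and VF COMBO library 1. In bulk RNA, fewer cells of a type and less RNA per cell cannot be told apart.

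Among the transcription factors, Hlf, a factor of immature stem cells (chromosome 11, 90336536 to 90390895), had 33, 40.2 and 32.9 CPM in VFDM COMBO, against 189, 132, 76.2 and 137 CPM in VF COMBO (-1.92 ± 0.25, adjusted p = 6.49e-06). Mecom, needed to maintain stem cells (chromosome 3, 29951296 to 30548008), had 26.6, 43.6 and 33 CPM in VFDM COMBO, against 289, 95.9, 64.3 and 150 CPM in VF COMBO (-2.12 ± 0.31, adjusted p = 7.42e-05). For both genes the highest VFDM COMBO library lay below the lowest VF COMBO library, and VF COMBO library 1 was the highest of its group. Erg, an ETS factor of stem cells, changed by -0.97 ± 0.18 (50.3 to 70.8 CPM against 73.8 to 155 CPM), Mycn by -1.38 ± 0.30 (49.4 to 73 CPM against 98.7 to 231 CPM) and the Hox cofactor Meis1 by -0.55 ± 0.12 (320 to 391 CPM against 433 to 566 CPM), the VFDM COMBO range standing first each time. None of these 3 overlapped between the groups, but the call of Meis1 ended without VFDM COMBO library 2 or 4 (adjusted p up to 0.073). Prdm16, a regulator of stem cell maintenance, had 4.1, 14.3 and 5.24 CPM in VFDM COMBO and 6.38 to 57.6 CPM in VF COMBO and overlapped, and its call ended without VFDM COMBO library 2 or 4 (adjusted p up to 0.0636). Gata2 (-0.01 ± 0.17), Runx1 (-0.04 ± 0.19) and Tal1 (0.26 ± 0.14), which act in stem and progenitor cells alike, did not pass.

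Several genes for surface proteins and ligands of stem cells were lower, while Slamf1, given above, was higher. Esam, an adhesion molecule of stem and endothelial cells (chromosome 9, 37528078 to 37538319), had 4.32, 2.71 and 5.68 CPM in VFDM COMBO, against 36.8, 15.2, 26.7 and 29.3 CPM in VF COMBO (-2.66 ± 0.34, adjusted p = 6.49e-06). Procr, the protein C receptor that marks stem cells (chromosome 2, 155751117 to 155755471), had 0.0315, 0.0575 and 0.439 CPM in VFDM COMBO, and 27.4, 4.64, 0.576 and 10.1 CPM in VF COMBO (-5.78 ± 0.83, adjusted p = 4.93e-05). In VFDM COMBO libraries 2 and 3 Procr lay below the level of 3 counts, and the lowest VF COMBO value lay just above the highest VFDM COMBO value. Tek, the receptor of angiopoietins, had 19.4 to 25 CPM in VFDM COMBO and 39.8 to 54.5 CPM in VF COMBO (-1.12 ± 0.21, adjusted p = 0.00131), and its ligand Angpt1 had 320 to 344 CPM and 524 to 657 CPM (-0.83 ± 0.16, adjusted p = 9.97e-04), with no overlap in either gene. The RNA-binding regulator Msi2 (-1.05 ± 0.18), Ctnnal1 (-1.79 ± 0.32) and the GTPase Gimap6 (-1.67 ± 0.31) were lower with no overlap. The call of Robo4 ended without VFDM COMBO library 2 or VF COMBO library 1, that of Myct1 without any VFDM COMBO library or without VF COMBO library 1 or 4, and that of Lmo2 without any one of the 7 (adjusted p up to 0.213).

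**Figure D1:**
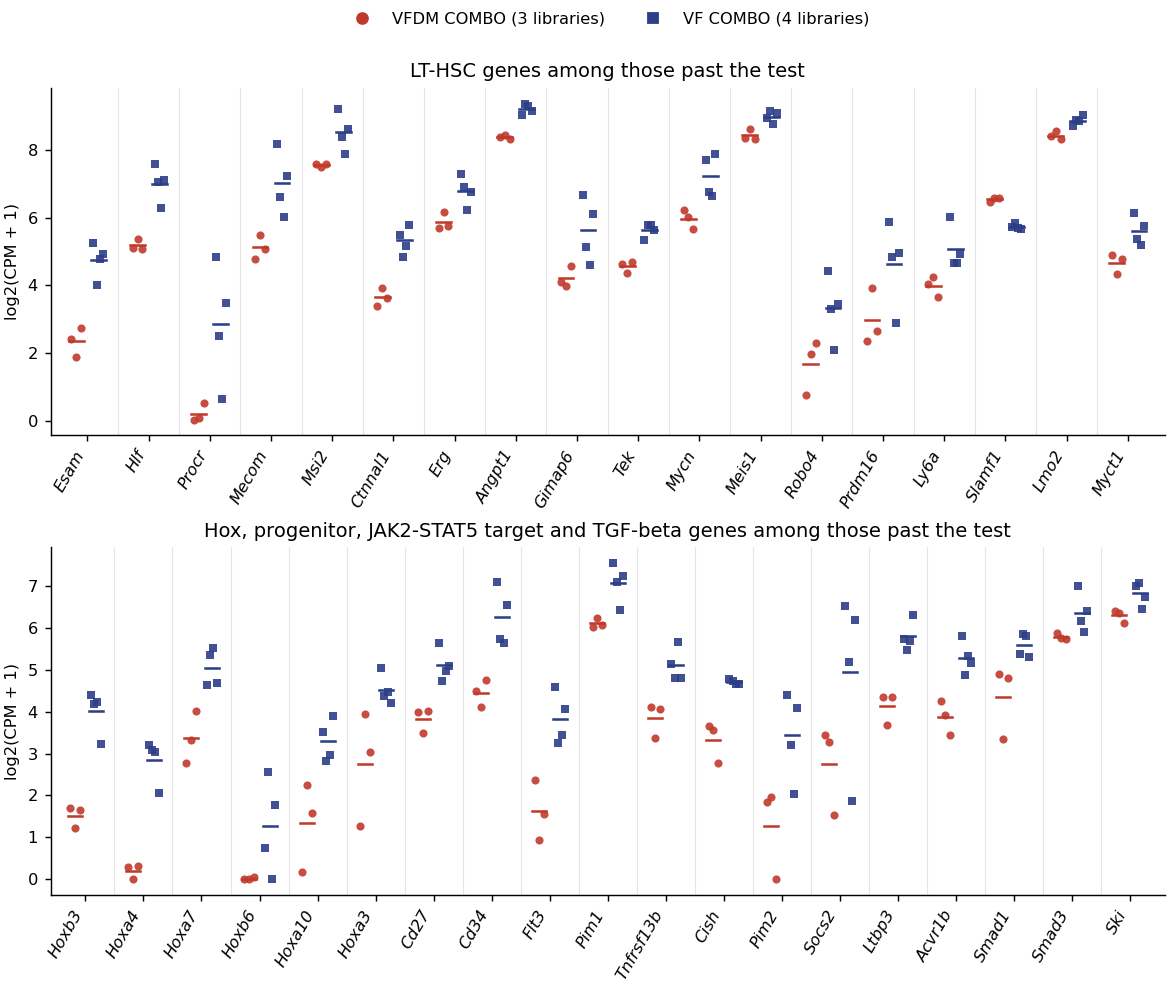
Levels of LT-HSC genes (top) and of Hox, progenitor, JAK2-STAT5 target and TGF-beta genes (bottom) among those that passed the test, as log2(CPM + 1) in each library, with VFDM COMBO left (red circles) and VF COMBO right (blue squares) and a bar at the mean of each group. All genes shown except Slamf1 lie lower in VFDM COMBO, and Procr and Hoxa4 reach at most 0.439 and 0.251 CPM in VFDM COMBO.

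Hox genes, which pattern the embryo and sustain self-renewal in blood stem cells, were lower as far as they passed. Of 19 listed, 15 were tested, and 6 were lower and 0 higher, beside 3.91% and 1.2% of all rows. All 15 had a negative log2 fold change, with a median of -1.85. Hoxb3 (chromosome 11, 96323326 to 96347930) had 2.24, 1.32 and 2.13 CPM in VFDM COMBO, against 20.1, 17.3, 17.7 and 8.37 CPM in VF COMBO (-3.05 ± 0.38, adjusted p = 4.2e-06). Hoxa4 had 0.221, 0 and 0.251 CPM in VFDM COMBO, against 8.26, 7.43, 7.25 and 3.15 CPM in VF COMBO (-5.25 ± 0.78, adjusted p = 4.74e-05). Hoxa7 had 5.9, 9.04 and 15.3 CPM in VFDM COMBO, against 24.1 to 44.8 CPM in VF COMBO (-1.72 ± 0.27), again with no overlap. Hoxb6 had at most 0.0314 CPM in VFDM COMBO and 0 to 4.86 CPM in VF COMBO, where library 3 was at 0, so the groups overlapped. The calls of Hoxa3 and Hoxa10 ended without VFDM COMBO library 2 or 4, and that of Hoxa3 also without VF COMBO library 1 (adjusted p up to 0.112). Hoxa9 (-0.67 ± 0.23, adjusted p = 0.0765) and Hoxb4 (-0.99 ± 0.38) did not pass.

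Among 18 progenitor genes 3 were lower and 0 higher (3.91% and 1.2% of all rows). Their median was 0.30 (-0.07 without VFDM COMBO library 3). Cd27, a TNF receptor family member, had 14.8, 10.3 and 15.3 CPM in VFDM COMBO, against 49.2, 25.7, 30.2 and 33 CPM in VF COMBO (-1.35 ± 0.27, adjusted p = 0.00202). Cd34 had 16.4 to 26.1 CPM in VFDM COMBO and 49.3 to 137 CPM in VF COMBO, and the cytokine receptor Flt3 had 0.921 to 4.16 CPM and 8.49 to 23 CPM. Neither overlapped, but the call of Cd34 ended without VFDM COMBO library 3 (adjusted p = 0.0575) and that of Flt3 without VFDM COMBO library 3 or 4 (up to 0.0747). Cdk6 (0.15 ± 0.24) and Myc (0.42 ± 0.18) did not pass.

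Targets of JAK2 and STAT5 were lower for 5 of 21 tested and higher for 0 (3.91% and 1.2% of all rows). Their median of -0.09 stood beside -0.06 for all rows and became 0.23 without VF COMBO library 1. Pim1, a survival kinase, had 64.7, 74.5 and 66.1 CPM in VFDM COMBO, against 186, 137, 85.5 and 152 CPM in VF COMBO (-1.03 ± 0.20, adjusted p = 0.00127). Cish, a feedback inhibitor of cytokine receptors, had 11.7, 10.8 and 5.8 CPM in VFDM COMBO, against 24.5 to 26.6 CPM in VF COMBO (-1.43 ± 0.33, adjusted p = 0.00748). The groups did not overlap in either gene. Tnfrsf13b (-1.32 ± 0.27) was lower as well. The call of Cish ended without VFDM COMBO library 4 (adjusted p = 0.0761), that of Pim2 without VF COMBO library 1 (0.055), and that of Socs2, another feedback inhibitor, without VFDM COMBO library 3 or 4 or VF COMBO library 1 (up to 0.112).

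TGF-beta family genes, which hold stem cells in quiescence, were lower for 5 of 25 tested and higher for 0 (3.91% and 1.2% of all rows). Their median was -0.49. Ltbp3, which stores latent TGF-beta in the matrix, had 19.5, 11.8 and 19.6 CPM in VFDM COMBO, against 52.5, 43.7, 50.3 and 78.3 CPM in VF COMBO (-1.73 ± 0.24, adjusted p = 2.43e-05). Acvr1b, a type I activin receptor, had 9.85 to 18.2 CPM in VFDM COMBO and 28.3 to 55 CPM in VF COMBO (-1.49 ± 0.27, adjusted p = 7.26e-04). The signal transducers Smad1 and Smad3 and the repressor Ski did not overlap between the groups. The call of Smad1 ended without VFDM COMBO library 3, those of Smad3 and Ski without any VFDM COMBO library or without VF COMBO library 1 or 4, and that of Ski also without VF COMBO library 2 (adjusted p up to 0.245). The ligand Tgfb1 (-0.19 ± 0.16) and the receptor Tgfbr1 (0.49 ± 0.21) did not pass.

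Erythroid markers were higher in VFDM COMBO. Of 26 tested, 10 were higher and 0 were lower (1.2% and 3.91% of all rows), and 16 did not pass. The median was 2.12, and in 21 of the 26 the groups did not overlap (8.23% of all rows). The summed level was 3242, 22780 and 5469 CPM in VFDM COMBO, against 614, 1142, 1754 and 912 CPM in VF COMBO. None of the 26 was at 0 in all libraries of a group. In 9 of the 10 called markers VFDM COMBO library 3 was the highest library. Without VFDM COMBO library 3, 2 markers were called, Fech among them, and the median was 2.05, and without VF COMBO library 1 there were 5.

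Fech, the last enzyme of haem synthesis, had 81.9, 376 and 141 CPM in VFDM COMBO, against 59.6 to 65 CPM in VF COMBO (1.66 ± 0.27, adjusted p = 1.78e-04). Alas2, its first enzyme in red cells, had 50.8, 1279 and 198 CPM in VFDM COMBO, against 3.94, 2.28, 9.31 and 0.63 CPM in VF COMBO (7.0 ± 1.48, adjusted p = 0.0064, and 0.112 without VFDM COMBO library 3). The adult globin gene Hba-a1 had 480, 7915 and 1390 CPM in VFDM COMBO, against 17.3, 7.98, 135 and 20.2 CPM in VF COMBO (6.18 ± 1.63, adjusted p = 0.0291). Its near copy Hba-a2, from which reads may not be separable, and Hbb-bs and Hbb-bt were also higher with no overlap. All 4 globin calls ended without VFDM COMBO library 3 or VF COMBO library 1, and all but that of Hbb-bt also without VF COMBO library 2 or 4 (adjusted p up to 0.182). The beta spectrin Sptb (2.31), the blood group gene Rhd (4.31) and the transferrin receptor Tfrc (0.98, log2 fold changes) were higher with no overlap, and their calls too ended without VFDM COMBO library 3, for Rhd and Tfrc also without others (adjusted p up to 0.163). The erythroid regulators Gata1 (69.7 to 108 CPM in VFDM COMBO, 14.4 to 66.6 CPM in VF COMBO) and Klf1 (65.9 to 93.5 CPM and 0 to 41.8 CPM) did not overlap but did not pass (adjusted p = 0.0776 and 0.292), and neither did the erythropoietin receptor Epor (0.54 ± 0.75).

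Haem and iron genes, which share Fech, Alas2 and Tfrc with the erythroid list, had a median of 0.77. Of 19 genes, 7 were higher, those shared ones among them, and 0 were lower (1.2% and 3.91% of all rows). The other 4 were Alad and Cpox of haem synthesis, the mitochondrial iron carrier Slc25a37 and the ferrireductase Steap3. Steap3 had 65.2 to 74.5 CPM in VFDM COMBO and 3.6 to 45.5 CPM in VF COMBO, and Cpox 84.5 to 128 CPM and 34.2 to 81.9 CPM, with no overlap. The calls of Alad and Slc25a37 ended without VFDM COMBO library 3, that of Cpox without VFDM COMBO library 4 or VF COMBO library 1, and that of Steap3 without any one of the 7 except VF COMBO library 2 (adjusted p up to 0.101).

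Promoter windows are shown for 3 erythroid genes called higher and 1 LT-HSC gene called lower, with GATA letters in capitals because GATA factors act in erythroid and stem cells. The windows are RefSeq's (GRCm38.p6), 300 bases on the gene's strand with 250 before the start, and the letters AGATAA or AGATAG, and TGATAA or TGATAG, were searched on both strands. Alas2 (chrX:150547167-150547466, + strand) held 1 match at base 165 and Hba-a1 (chr11:32283422-32283721, + strand) 1 at base 68.
Alas2: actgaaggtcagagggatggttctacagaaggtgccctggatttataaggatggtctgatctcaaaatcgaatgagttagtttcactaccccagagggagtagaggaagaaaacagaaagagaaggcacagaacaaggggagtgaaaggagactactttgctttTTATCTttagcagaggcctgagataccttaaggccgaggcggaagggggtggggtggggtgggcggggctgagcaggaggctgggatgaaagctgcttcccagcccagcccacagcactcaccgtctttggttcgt
Hba-a1: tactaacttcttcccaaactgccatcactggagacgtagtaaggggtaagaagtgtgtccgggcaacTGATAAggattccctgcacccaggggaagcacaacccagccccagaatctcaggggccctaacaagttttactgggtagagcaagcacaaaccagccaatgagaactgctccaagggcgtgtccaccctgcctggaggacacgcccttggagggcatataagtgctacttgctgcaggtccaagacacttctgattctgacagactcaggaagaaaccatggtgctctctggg
Hbb-bt (chr7:103813874-103814173, - strand) held none of the 4 words, and the lower stem cell gene Tek (chr4:94739039-94739338, + strand) held 1 at base 287.
Hbb-bt: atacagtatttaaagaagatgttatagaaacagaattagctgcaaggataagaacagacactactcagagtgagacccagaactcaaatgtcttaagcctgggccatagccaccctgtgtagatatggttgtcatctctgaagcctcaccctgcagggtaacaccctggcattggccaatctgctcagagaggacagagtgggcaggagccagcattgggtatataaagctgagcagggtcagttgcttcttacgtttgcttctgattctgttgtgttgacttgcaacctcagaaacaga
Tek: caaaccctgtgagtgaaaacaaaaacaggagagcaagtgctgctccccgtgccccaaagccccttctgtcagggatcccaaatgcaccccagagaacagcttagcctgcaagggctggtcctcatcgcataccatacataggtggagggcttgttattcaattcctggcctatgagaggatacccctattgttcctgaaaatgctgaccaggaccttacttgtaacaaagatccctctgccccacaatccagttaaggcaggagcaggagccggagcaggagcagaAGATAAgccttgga
Of the 10 erythroid genes called higher, 8 had 9 windows between them, of which 6 held a match (66.7%). A match was held by 5 of 18 windows of the LT-HSC genes called lower (27.8%), by 2 of 7 windows of the neutrophil genes called higher (28.6%) and by 29.8% of all 32851 windows. A match is a description of these letters and not a bound site.

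Neutrophil granule and effector genes were higher too, from low levels. Of 16 tested 7 were higher and 0 lower (1.2% and 3.91% of all rows), with a median of 5.77. The summed level was 892.5, 1973 and 737 CPM in VFDM COMBO, against 75.5, 47.8, 82.7 and 317 CPM in VF COMBO. S100a8, a calcium-binding alarmin, had 11.8, 278 and 50.3 CPM in VFDM COMBO, against 1.1, 0, 0.048 and 3.24 CPM in VF COMBO (6.63 ± 1.54, adjusted p = 0.0123, and 0.0832 without VFDM COMBO library 3). The collagenase Mmp8 had 4.07, 60.8 and 14.7 CPM in VFDM COMBO and was at 0, 0, 0 and 0.21 CPM in VF COMBO (adjusted p = 0.00148). VFDM COMBO library 3 was the highest library for all 7, and without it 1 of the 16 was higher (Mmp8) and 1 was lower, the granulocyte colony-stimulating factor receptor Csf3r (-1.49, adjusted p = 0.0118). Without VF COMBO library 1, 2 of the 16 were higher. S100a9, Ngp, Lcn2, Cd177 and Retnlg were higher with no overlap, and each call ended without VFDM COMBO library 3 or VF COMBO library 1, for Lcn2, Cd177 and Retnlg also without others (adjusted p up to 0.204). Mpo (66.6 to 662 CPM in VFDM COMBO, 0.127 to 200 CPM in VF COMBO) and Elane, which belong to earlier granulocyte precursors, overlapped and did not pass.

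Markers of other lineages gave single calls, beside 1.2% of all rows called higher and 3.91% called lower. Of 15 monocyte and macrophage markers, with a median of 1.21, 1 was higher, the endotoxin co-receptor Cd14, with 1.61, 9.5 and 4.58 CPM in VFDM COMBO and 0, 0, 0 and 0.12 CPM in VF COMBO. Of 24 megakaryocyte and platelet markers 3 were lower and 0 higher, with a median of -0.15. Fli1, an ETS factor of megakaryocytes and stem cells, had 118, 110 and 130 CPM in VFDM COMBO, against 172 to 228 CPM in VF COMBO (-0.75 ± 0.15, adjusted p = 0.00276). The other lower genes were the adhesion molecule Selp and the multimerin Mmrn1, whose calls ended without VFDM COMBO library 4, for Selp also without VF COMBO library 1 and for Mmrn1 also without VFDM COMBO library 3 or VF COMBO library 4 (adjusted p up to 0.14). Pf4 (-1.17 ± 0.57), Vwf (-0.59 ± 0.51) and Itga2b (-0.64 ± 0.44) did not pass. No member of the other 5 lists was called, at medians of 1.57 for 12 B cell markers, 1.72 for 7 mast cell, basophil and eosinophil markers, 2.07 for 10 stromal and endothelial markers, 0.34 for 8 dendritic cell markers and -1.39 for 12 T and NK cell markers. Without VFDM COMBO library 3 the medians were -0.42 for B cell, -0.36 for dendritic cell and 1.51 for mast cell, basophil and eosinophil markers. Without VF COMBO library 1 that of T and NK cell markers was 5.49, over the 8 then tested. The stromal and endothelial list summed to 55.3 to 83.6 CPM in VFDM COMBO and 12.2 to 49.7 CPM in VF COMBO, and the mast cell list to 119.7 to 168 CPM and 7.16 to 95.6 CPM, so neither sum overlapped. The B cell list summed to 10.8 to 69.3 CPM in VFDM COMBO and 6.25 to 177.5 CPM in VF COMBO, and overlapped. The T and NK list summed to 25.3 to 41 CPM in VFDM COMBO and to 187 CPM in VF COMBO library 1, against 20.9 to 28.7 CPM in the other VF COMBO libraries.

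**Figure D2:**
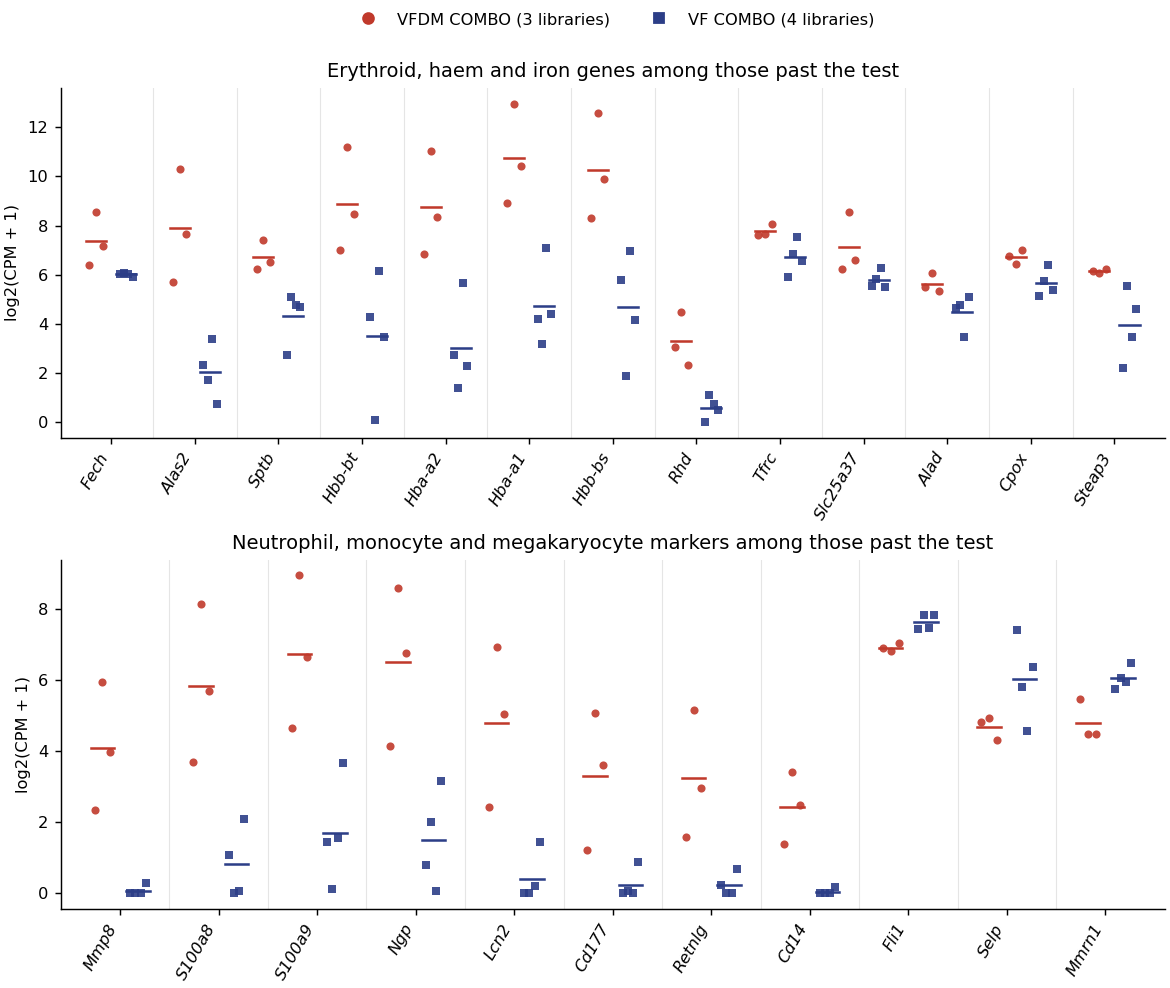
Levels of erythroid, haem and iron genes (top) and of neutrophil, monocyte and megakaryocyte markers (bottom) among those that passed the test, as log2(CPM + 1) in each library, with VFDM COMBO left (red circles) and VF COMBO right (blue squares) and a bar at the mean. VFDM COMBO library 3, the middle red circle of each gene, is the highest for every erythroid marker shown except Tfrc and for all 7 neutrophil markers, and libraries 2 and 4 also lie above the VF COMBO libraries in these erythroid and neutrophil genes.

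Of 53 type I interferon-stimulated genes tested, 1 was higher and 2 were lower in VFDM COMBO, with a median of -0.0049. That count is near the share of all rows called (1.2% higher and 3.91% lower, with a median of -0.06) and is not a result about the list. Rsad2, an antiviral enzyme, had 84.4, 632 and 131 CPM in VFDM COMBO, against 45.5 to 64.2 CPM in VF COMBO (2.41 ± 0.37, adjusted p = 1.72e-04). Ifi27 (chromosome 12, 103434211 to 103440239) went the other way, with 18.5, 14.4 and 14.1 CPM in VFDM COMBO against 68.9, 43.1, 53.5 and 65.4 CPM in VF COMBO (-1.88 ± 0.26, adjusted p = 1.51e-05). The membrane restriction factor Ifitm1 was lower (-1.76 ± 0.44), and its call ended without any one of VFDM COMBO libraries 2 and 4 and VF COMBO library 1 (adjusted p up to 0.101). Irf7 (115 to 224 CPM in VFDM COMBO, 108 to 164 CPM in VF COMBO), Ifit1 (44.7 to 105 CPM and 56.3 to 67.3 CPM) and Isg15 (34.8 to 90 CPM and 16.2 to 42.5 CPM) overlapped and did not pass.

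The factors that carry the interferon signal were lower for 5 of 25 (Stat4, Stat3, Irf1 and Irf2 among them) and higher for 0. Their median was -0.18, and of all rows 3.91% were lower and 1.2% higher. Stat4 had 15.1, 14.2 and 19.6 CPM in VFDM COMBO, against 109, 45.1, 38.4 and 57.9 CPM in VF COMBO (-1.94 ± 0.33, adjusted p = 3.24e-04). Irf2, which limits interferon responses, had 70.7 to 95.5 CPM in VFDM COMBO and 111 to 132 CPM in VF COMBO, with no overlap, but its call ended without VFDM COMBO library 2 or 3, that of Irf1 without VFDM COMBO library 3, and that of Stat3 without any one of VFDM COMBO libraries 2 and 4 and VF COMBO library 1 (adjusted p up to 0.102). Among 19 interferon-inducible GTPases Irgm1 was higher and Iigp1 and Gbp8 were lower, each with a call that ended without VFDM COMBO library 3 or VF COMBO library 1, for Iigp1 and Gbp8 also without others. A negative log2 fold change was found in 17 of the 19 GTPase genes. Their median was -0.60, and it was -0.39 without VF COMBO library 1 and -0.72 without VFDM COMBO library 3. The adaptor Tmem173 of the DNA sensing pathway was lower, with a call that ended without VFDM COMBO library 3 or 4 or VF COMBO library 1, and the Schlafen genes Slfn4 and Slfn14 were higher mainly in VFDM COMBO library 3 (64.9 and 17.8 CPM, against 0.82 and 0 CPM in library 2). No member of the MHC class I list (22 tested, median -0.19) was called.

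Genes of the Ifi200 cluster on chromosome 1, whose products bind nucleic acids, were higher for 2 of 13 and lower for 0. Of all rows, 1.2% were higher and 3.91% lower. Ifi211 (173896345 to 173913046) had 17.9, 24.9 and 13.9 CPM in VFDM COMBO, against 1.06, 0.802, 3.02 and 2.61 CPM in VF COMBO (3.33 ± 0.55, adjusted p = 1.87e-04). Ifi204 (173747293 to 173766943) had 33.2, 58.8 and 44.4 CPM in VFDM COMBO, against 3.98, 3.55, 10.1 and 7.02 CPM in VF COMBO (2.88 ± 0.57, adjusted p = 0.00261). The groups did not overlap in either gene, and both calls held without any single one of the 7 libraries. The call of Ifi204 ended without both VFDM COMBO library 3 and VF COMBO library 1 (adjusted p = 0.0505, edgeR). By limma voom with quality weights neither gene passed (adjusted p = 0.426 for Ifi211 and 0.421 for Ifi204). The neighbouring Ifi203 (-0.05 ± 0.21), Ifi205 (1.44 ± 0.66) and Aim2 (0.47 ± 0.29) did not pass.

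The leading genes were the 15 in each direction with the smallest p among expressed genes with no overlap, whether or not a list held them. The log2 fold changes of the 15 lower genes ran from -3.39 to -1.35, and all 15 passed without any single one of the 7 libraries. Cadps2, which primes secretory vesicles (chromosome 6, 23262773 to 23839421), had the smallest p, with 3.12, 4.72 and 2.42 CPM in VFDM COMBO, against 44.7, 16.5, 13.8 and 31.8 CPM in VF COMBO (-2.98 ± 0.30, adjusted p = 3.49e-07). The endosomal adaptor Appl2 had 3.03, 0.921 and 4.3 CPM in VFDM COMBO, against 51.9, 17.6, 16.3 and 32.6 CPM in VF COMBO (-3.39 ± 0.37). Ptgs1, a cyclooxygenase that makes prostaglandin precursors, had 14.8 to 19 CPM in VFDM COMBO and 43.4 to 155 CPM in VF COMBO (-2.34 ± 0.28). The others included the zinc finger genes Zfp532 and Zfp608, the trafficking gene Nbea, the collagen Col16a1, the scavenger receptor Scarf1, the endothelin-converting enzyme Ece1, the guanine nucleotide exchange factor Arhgef6, the peptidoglycan hydrolase Pglyrp2 and Cep170b. In 13 of the 15, VF COMBO library 1 was the highest VF COMBO library.

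The log2 fold changes of the 15 leading higher genes ran from 1.18 to 8.70, and VFDM COMBO library 3 was the highest library of VFDM COMBO in all 15. Several are known from maturing red cells. Bpgm, which makes the red cell metabolite that lowers oxygen affinity, had 35.1, 472 and 99.4 CPM in VFDM COMBO, against 34.3, 17.6, 13 and 22.6 CPM in VF COMBO (3.21 ± 0.50, adjusted p = 1.82e-04). The membrane skeleton genes Epb41 (1.35 ± 0.22) and Mpp1 (1.84 ± 0.33) and the mitophagy receptor Bnip3l (1.18 ± 0.21) were higher. Without VFDM COMBO library 3 the log2 fold changes were 1.67 for Bpgm, 0.61 for Epb41, 1.64 for Mpp1 and 0.77 for Bnip3l, and these calls held. Lack of overlap was a condition of the choice of leading genes. Tent5c, a poly(A) polymerase, had 44.2, 808.5 and 125 CPM in VFDM COMBO, against 3.67 to 15.8 CPM in VF COMBO (5.22 ± 0.65, adjusted p = 1.44e-05). Mkrn1, Plin2 and Ttll12 were higher as well, and the call of Cdr2 ended without VFDM COMBO library 3 (adjusted p = 0.083). The calls of Bnip3l, Plin2 and Ttll12 ended without both VFDM COMBO library 3 and VF COMBO library 1 (adjusted p up to 0.11, edgeR).

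The genotype difference under COMBO was next set beside those under the other treatments. Under vehicle 212 rows differed between VFDM and VF (0.956%), under IFN 2 (0.00902%) and under AZA 164 (0.74%), against 1132 under COMBO. Leaving out single libraries of their own groups moved these counts to between 63 (without VF vehicle library 4) and 815 (without VF vehicle library 3) under vehicle, 0 and 10 under IFN and 118 and 207 under AZA. The library labelled VFDM IFN 3 had Dnmt3a at 162 CPM, with 102 to 111 CPM in the other VFDM IFN libraries and 160 to 178 CPM in VF IFN, and without it 10 rows differed under IFN. Of the 1132 rows, 18 were also called under vehicle (8.49% of the vehicle calls and 1.59% of the COMBO calls), 11 of them in the same direction. With AZA 29 were shared (17.7% of the AZA calls and 2.56% of the COMBO calls), 25 in the same direction, and with IFN 1.

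The difference of differences was tested as such, in a pair of tests that share the COMBO and vehicle libraries. In 830 rows (3.74%) the genotype difference under COMBO differed from that under vehicle, 553 lower (2.49%) and 277 higher (1.25%), and in 714 rows (3.22%) it differed from the mean of the other 3 treatments, 552 lower (2.49%) and 162 higher (0.731%). The vehicle libraries differed in the share of their counts in small and ribosomal RNA rows, at 5.64 to 8.55% in VFDM vehicle and 22.3, 25.1, 8.685 and 37.5% in VF vehicle libraries 1 to 4. Without those rows 800 rows differed between COMBO and vehicle, without VF vehicle library 3 there were 1109 and without VF vehicle library 4 there were 524. The part of this share in the results against vehicle was not tested further. Of the 40 LT-HSC genes 16 were lower in the first test and 17 in the second, with 0 higher in either. The LT-HSC median was -0.98 under COMBO, 0.28 under vehicle, 0.02 under IFN (0.09 without the library labelled VFDM IFN 3) and -0.11 under AZA. The Hox medians were -1.85 under COMBO, 0.32 under vehicle, 0.00 under IFN and -0.01 under AZA, and 6 of the 15 were lower in each of the tests. Erythroid markers were higher for 9 of 26 against vehicle and for 7 against the mean of the other treatments, but their median was also above 0 under AZA (1.19, with 9 of 26 higher in VFDM AZA).

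Single genes show the same contrast. Hlf had 32.9 to 40.2 CPM in VFDM COMBO and 76.2 to 189 CPM in VF COMBO, whereas VFDM vehicle had 415 to 506 CPM and VF vehicle 261 to 309 CPM, the opposite order, which did not pass by itself (adjusted p = 0.114). The difference of log2 fold changes, COMBO minus vehicle, was -2.61 (adjusted p = 1.5e-05). Mecom had 261 to 307 CPM in VFDM vehicle and 168 to 279 CPM in VF vehicle, and Esam 74 to 78.4 CPM and 62.5 to 95.5 CPM, both with overlap. All COMBO levels of the 3 genes lay below the vehicle levels of the same genotype, apart from Mecom in VF COMBO library 1 (289 CPM). This difference between treatments was not tested. Ifi27 had 38.7 to 72.5 CPM in VFDM AZA and 24.6 to 47.8 CPM in VF AZA, which overlapped.

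**Figure D3:**
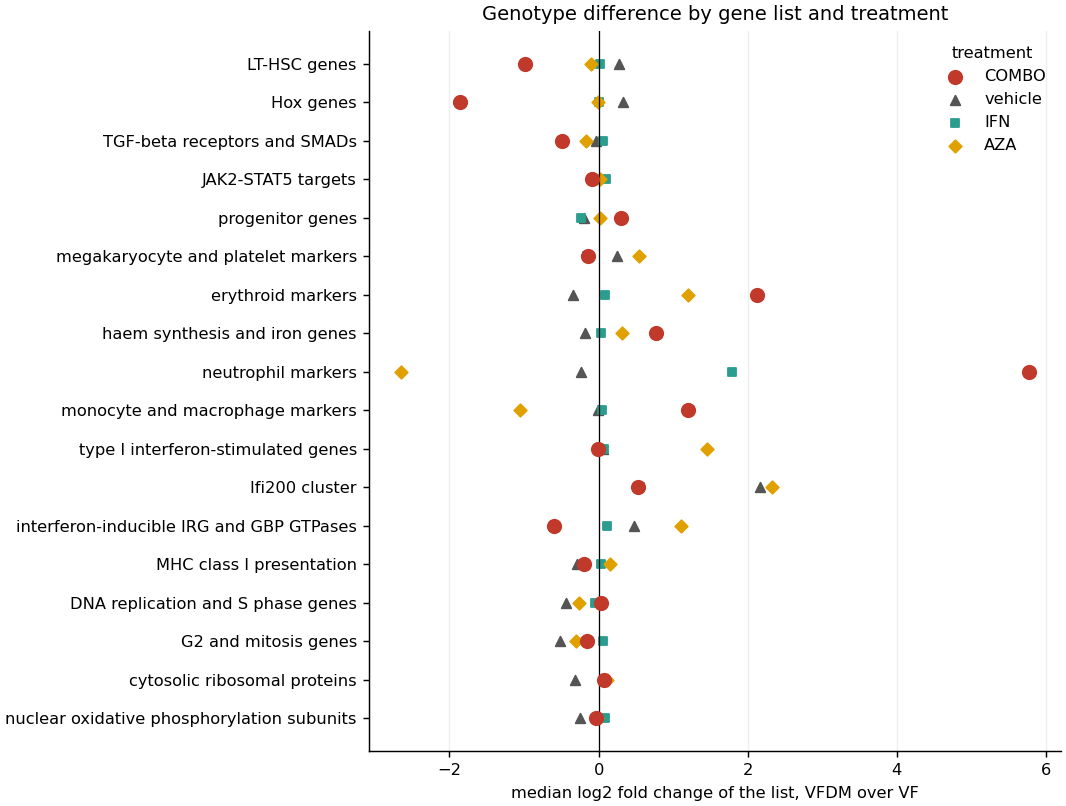
Median log2 fold change of VFDM over VF for 18 gene lists, with COMBO as large red circles, vehicle as grey triangles, IFN as green squares and AZA as yellow diamonds. LT-HSC and Hox genes have medians of -0.98 and -1.85 under COMBO and medians between -0.11 and 0.32 under the other treatments, while erythroid markers lie at 2.12 under COMBO and 1.19 under AZA.

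Interferon genes did not follow this order. Under AZA 42 of 53 type I interferon-stimulated genes were higher in VFDM and 0 lower (0.636% and 0.104% of all rows), with a median of 1.45, against 1 of 53 and a median of -0.0049 under COMBO. The mean of the other 3 treatments includes AZA. In the difference from that mean, 11 of the 53 were lower under COMBO (2.49% of all rows) and 1 was higher (0.731%). In the difference from vehicle, 2 of the 53 were lower (2.49% of all rows) and 2 were higher (1.25%).

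A small set differed with the genotype under COMBO, vehicle and AZA alike, in 1 direction. It held Dnmt3a, Igfbp4 and the noncoding row AC102496.1 (lower) and Ifi211, Ifi204, Gm15446, Echdc2, Klk1b22 and mt-Tg (higher). Gm15446, a predicted gene (chromosome 5, 109923400 to 109943936), had 22.3 to 40.2 CPM in VFDM COMBO and 3.74 to 8.78 CPM in VF COMBO, and 24.5 to 31.7 CPM in VFDM vehicle and 4.22 to 5.15 CPM in VF vehicle. Echdc2, an enoyl-CoA hydratase family gene (chromosome 4, 108165437 to 108179308), had 168 to 236 CPM in VFDM COMBO and 76.5 to 151 CPM in VF COMBO, and 217 to 287 CPM and 106 to 176 CPM under vehicle. Its log2 fold changes were 0.95 under COMBO, 0.86 under vehicle, 0.81 under IFN and 0.83 under AZA. Klk1b22, a kallikrein, was at 0 in every VF library and reached 7.28 CPM in VFDM COMBO, where library 3 was also at 0. The library labelled VFDM IFN 3 lay just above the VF IFN level of Gm15446 (6.23 CPM, against up to 5.37 CPM), where the rest of its group had 22.2 to 33.7 CPM, and had 12.5 CPM of Ifi204, where the rest had 68.9 to 79.6 CPM. Dnmt3a did not pass under IFN, with that library (adjusted p = 1.0) or without it (adjusted p = 1).

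**Figure D4:**
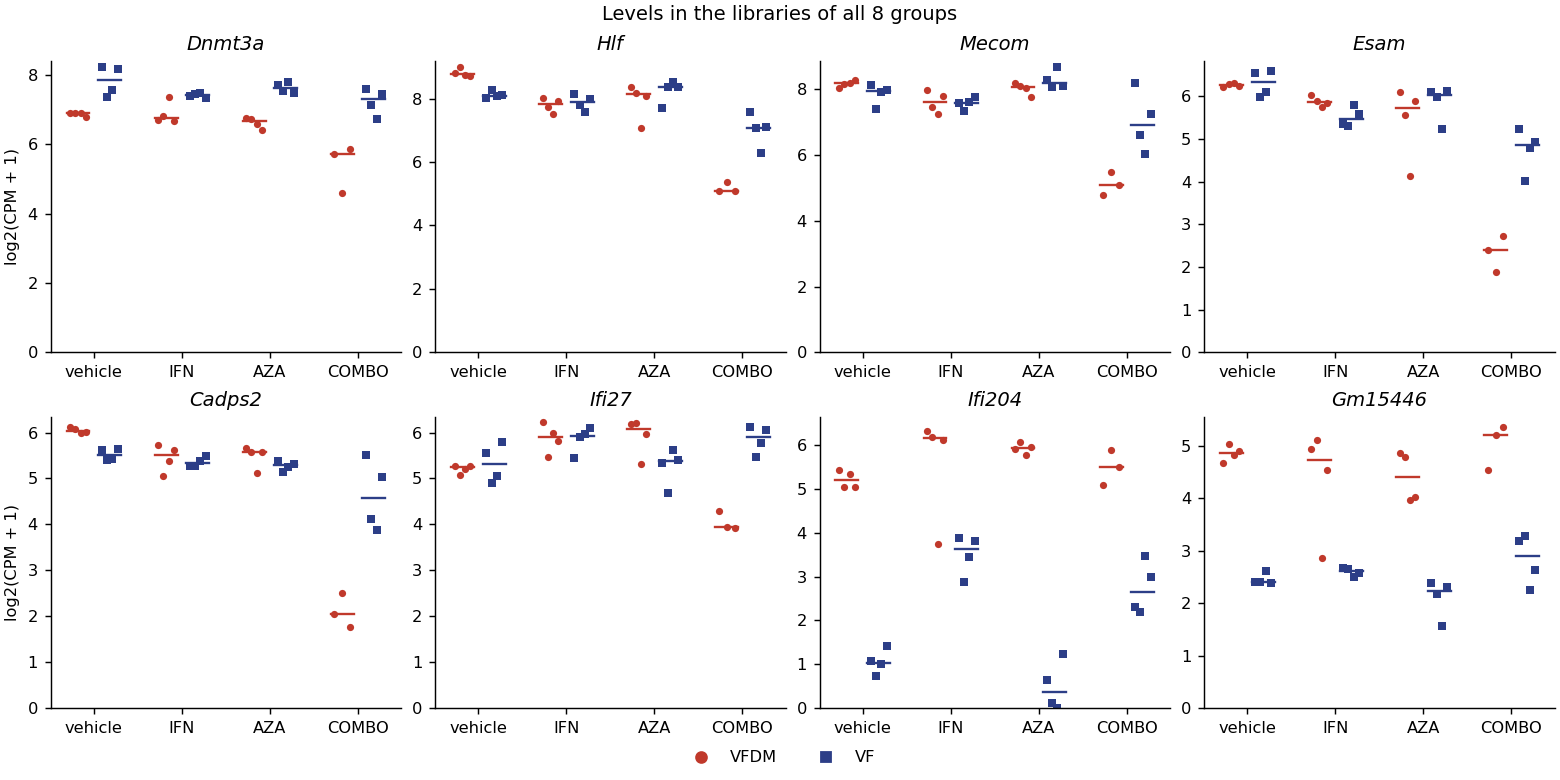
Levels of 8 genes as log2(CPM + 1) in the libraries of all 8 groups, with VFDM left (red circles) and VF right (blue squares) within each treatment and a bar at the median. Hlf, Mecom and Esam lie lower in VFDM than in VF under COMBO with no overlap, while with the library labelled VFDM IFN 3 set aside the VFDM libraries of each treatment lie below the VF libraries for Dnmt3a and above them for Ifi204 and Gm15446.

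In 20 of the 39 lists, with 448 members tested, no gene passed, while 5.11% of all rows did. They comprise groups of basic cell functions, the 5 lineage lists above without a call, MHC class I, immediate early genes and imprinted genes, among others. None of 30 DNA replication and S phase genes (median 0.04) and none of 30 G2 and mitosis genes (median -0.16) was called, and the proliferation marker Mki67 had 1363 to 1984 CPM in VFDM COMBO and 1010 to 1985 CPM in VF COMBO. None of 78 cytosolic ribosomal protein genes (median 0.07), 35 ribosome biogenesis genes (median 0.15), 44 nuclear oxidative phosphorylation subunits (median -0.03) and 15 mitochondrially encoded genes (median 0.20) was called. Genes for the uptake and activation of azacytidine (23 tested, median -0.03) and for the silencing of retroelements (21 tested, median 0.06) were not called, nor were 27 imprinted genes and the 3 methylation-silenced germline genes that passed the filter on low counts. At an unadjusted p under 0.05, 4541 of all 22172 rows passed, so a gene that missed the threshold is not thereby shown to be equal between the groups.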

How the data were processed

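LT-HSC RNA was sequenced with a SMART-Seq stranded kit, per the labels' protocols. The deposited table holds raw read counts per gene and, per the submitters' processing notes, FastQC 0.11.5, STAR 2.7.10a, featureCounts, R 4.3.0 and the mm10 genome were used. For the counting, annotation and strand setting were not given in the sources used here, and overlapping and antisense genes may share reads. The table had 55492 rows, of which 55227 were given a symbol and mm10 position from GENCODE, and 5 are transgene rows. Promoter windows come from RefSeq.

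Samples were grouped by genotype and treatment as labelled. Rows with low counts were filtered with edgeR's filterByExpr (minimum count 10, minimum total 15), which left 22172 rows, and scaled by TMM. The test was edgeR 4.0.16's quasi-likelihood test (R 4.3.3, robust, common dispersion 0.418) over all 31 libraries with 1 mean per group and no covariate, with Benjamini-Hochberg adjustment and a threshold of 0.05. Contrasts were VFDM over VF under each treatment, and the difference under COMBO minus that under vehicle or minus the mean of the other 3 treatments. Alternatives were DESeq2 1.42.0, limma 3.58.1 voom with quality weights, RLE size factors, no filter, protein-coding rows, a replicate block, the compared groups alone, no libraries under 20000 detected rows, and each library left out.

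On simulated counts for the COMBO comparison (22172 genes, 200 changed) the test called 35% of genes changed by 1 and 79% of genes changed by 2 on the log2 scale, and 4.2% of its calls were false. The simulation gave each gene 1 spread in all groups and held no library that stood apart. The 4.2% therefore does not measure the share of false calls in the real libraries. Replicates were not duplicates of each other (chi-square per degree of freedom at least 83.7 between libraries of a group). Counting error is small beside this spread, and intervals for it are not given.

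The comparison and the 39 gene lists (925 entries, 6 not found) were chosen with earlier results of these data known. Genes named were up to 15 in each direction by p with no overlap and a mean log2 CPM of at least 2, up to 4 per list, up to 5 each way per difference of differences, and the sort, methylation and transgene rows. Others named as members of a list, as called under several treatments or as background were chosen after their values were seen. Results for some genes are not reported here, while counts and medians of lists cover every member.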

Additional observations from a re-analysis of the deposited data

Results flagged for a closer look

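Single VF COMBO libraries stood apart from the other 3 for some values on the log2(CPM + 1) scale. The gap to the nearest library divided by the range passed Dixon's critical value, which chance passes in about 1 of 20 groups. Where the other 3 libraries are at 0, as for Mmp8, Cd14, Slfn14 and Cd3e, the ratio is 1 at any value above 0 and carries no information. Library 4 stood above the others for Mmp8 (ratio 1, 0.21 CPM against 0), Cd14 (1, 0.12 CPM), Slfn14 (1, 0.03 CPM, below the 0.09 CPM of 3 counts in that library), Lcn2 (0.864, 1.68 CPM) and Cd177 (0.932, 0.84 CPM), and below them for Hoxa4 (0.855, 3.15 CPM). Library 1 stood above for Cd3e (1, 23.9 CPM) and for the mean of the T and NK cell markers (0.962), and below for Klf1 (0.844, 0 CPM) and Gata2 (0.832, 277 CPM). Library 2 stood below for Dnmt1 (0.837, 466 CPM) and for the mean of the S phase genes (0.848), and library 3 above for Cdr2 (0.891, 10.8 CPM).

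The genotype difference under COMBO differed from that under vehicle in 830 rows and from the mean of the other 3 treatments in 714, by edgeR's quasi-likelihood test of the difference itself. Against vehicle the log2 difference was -3.52 for Cadps2, -4.02 for Appl2, -2.48 for Zfp608, -2.01 for Arhgef6, -2.61 for Hlf and 5.15 for Tent5c. Against the mean of the other treatments it was -3.27 for Cadps2, -3.39 for Appl2, -2.94 for Zfp532, -3.01 for Col16a1 and -2.02 for Zfp608. For genes higher in VFDM COMBO it was 4.91 for Tent5c, 1.60 for Fech, 1.76 for Mkrn1, 3.14 for Bpgm and 1.85 for Slc25a37.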

How the results depend on the processing

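The count of rows that differed between VFDM COMBO and VF COMBO (1132) was 2085 with DESeq2, 162 with limma voom and quality weights, and 0 with the 7 libraries fitted alone by edgeR, where 1313 of 17183 rows had an unadjusted p under 0.05. DESeq2 and limma voom on those 7 libraries, added after the data were seen, called 333 and 109. Leaving out single libraries gave 614 to 1334 rows, and 408 without both VFDM COMBO library 3 and VF COMBO library 1, also added. The split between higher and lower moved as well, to 507 higher and 827 lower without VF COMBO library 4 and to 110 higher and 1016 lower without libraries under 20000 detected rows, which keeps 3 of the 7. Only VF COMBO library 4 is then left of VF COMBO, its spread is taken from the other groups, and that split describes a comparison with 1 library. The count for COMBO against vehicle (830) was 1833 with DESeq2, 251 with limma voom, 298 with the compared groups alone and 524 to 1124 with single libraries left out. The count against the mean of the other treatments (714) was 1642 with DESeq2, 121 with limma voom, 352 without both libraries and 459 to 1030 with single libraries left out. Dnmt3a ran from -2.0 to -1.45 with single libraries left out and was -1.74 with the compared groups alone, where it did not pass. The cause of these shifts was not tested. No named gene that had been called changed direction under any alternative run.

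Correlations of the deviations of same-numbered libraries of the groups were 0.0391, 0.0276 and 0.0367, and those of differently numbered ones ran from -0.0786 to 0.0565. No pairing was seen, but groups of 3 and 4 libraries are too small to exclude it. With the replicate number as a block the counts were 735 for COMBO and 460 against the mean of the other treatments, and 72 of 78 named calls passed.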
